A study of Homo sapiens with 6 samples.

Results

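The genes of fatty acid synthesis, desaturation, activation, oxidation and storage, with the fatty alcohol genes FAR1 and FAR2, were examined in Hep3B cells. They were chosen by name with earlier results of these data known, among them the rise of FAR2. They are 38 of the 23228 genes in the deposited tables, and each of the 38 had enough reads to be tested. Compared with control, 14 of them rose and 15 fell in the PELP1-KD-labelled libraries, beside 26.8% of all tested genes in each direction. Most of the changes were small. FAR2 was the member that rose at least 2-fold and CD36 the member that fell at least 2-fold. Both were rare and passed the filter on low counts only through the group where they were high. Among the long-chain acyl-CoA synthetases, ACSL1 and ACSL5 rose while ACSL3 and ACSL4 fell.

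The established line Hep3B comes from a human hepatocellular carcinoma and was grown in RPMI medium. RNA was sequenced from 3 control libraries, of cells transduced with lentivirus carrying a non-targeting shRNA, and from 3 libraries titled as a PELP1 knockdown (PELP1-KD), of cells transduced with an shRNA against PELP1. An shRNA is a hairpin RNA from which the cell makes a small RNA that directs the breakdown of a matching mRNA, and PELP1 is a nuclear receptor coregulator. By the labels, the knockdown cells were selected with puromycin and stable clones were pooled, and the libraries do not tell the clones of a pool apart. The labels do not say that the 3 libraries of a group were grown as separate cultures, and the p values then measure the spread between these samples, which may be technical. The titles name the first of the study's PELP1 shRNAs and the protocol names both. The sources also differ on the RNA extraction, on mRNA selection or removal of ribosomal RNA, and on single or paired reads.

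PELP1 itself, the targeted gene, had 4970 ± 115 normalized reads (SD, n = 3) in control and 4695 ± 238 (SD, n = 3) in the PELP1-KD-labelled libraries, or 94.5% of the control level. Normalized reads are reads scaled to a common library size. The log2 fold change was −0.08 (standard error, SE, 0.04; 95% interval −0.17 to 0.00, adjusted p = 0.101 from edgeR's quasi-likelihood test). It was −0.08 with an adjusted p of 0.0106 with the replicate number as a block, and −0.10 with an adjusted p of 0.018 without PELP1-KD replicate 3. The study reported less PELP1 protein in Hep3B knockdown cells by Western blot, and in their xenografts by staining. These libraries hold RNA only. Since the RNA was close to the control level, the libraries are named by their labels and every direction is that of the labels. The libraries held 26758363 to 34456542 reads on genes, of which the 38 genes took 0.869% to 0.872% in control and 0.816% to 0.821% in the PELP1-KD-labelled libraries. Of 8 hepatocyte markers, each of which had at least 99.8 RPKM in control (reads per kilobase of exon per 1000000 reads), 6 fell and 2 rose, AFP and HNF4A. Their summed level was 795990 to 808709 normalized reads in control and 684494 to 698794 in the PELP1-KD-labelled libraries. Of 12 markers of leukocytes, endothelial cells, fibroblasts or stellate cells and adipocytes, 5 had enough reads to be tested. Of these, CD68 and LUM rose and PDGFRB fell, and the summed level of the 12 was 1889 to 2064 in control against 2636 to 2743. CDH5, ADIPOQ and LEP had 0 reads in each of the 6 libraries. The part of these markers in the results below was not tested, and in bulk RNA fewer cells of a type cannot be told apart from less RNA per cell.

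Fatty acids are built in the cytosol from acetyl-CoA, which acetyl-CoA carboxylase turns into malonyl-CoA and fatty acid synthase extends into palmitate. Desaturases and elongases then modify the chain, and acyl-CoA synthetases attach coenzyme A so that it can be stored as triglyceride, built into membranes, reduced to a fatty alcohol for ether lipids and waxes, or oxidised. Oxidation takes place in mitochondria, where entry through the carnitine shuttle is the regulated step, and in peroxisomes, which shorten very long and branched chains. The liver carries out each of these processes, and many hepatocellular carcinomas make their own fatty acids.

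FAR1 and FAR2 encode the same enzyme activity, and FAR2 had the largest change of the 38 genes. The sequence just upstream of a RefSeq start site is therefore given for each. These start sites were matched by gene symbol and not checked against those of the counted transcripts, so the windows need not be the promoters in use. The sequences are RefSeq's for GRCh38.p14, 250 bases long and end at the base before the start. Capitals mark matches, on either strand, to CCAAT (the box bound by NF-Y), TATAAA (the TATA box), TCACNCCAC (a sterol regulatory element, bound by SREBP) and AGGNCA repeated after 1 base of any kind (a direct repeat bound by PPAR with RXR).
FAR1 promoter, chr11:13668418-13668667, plus strand: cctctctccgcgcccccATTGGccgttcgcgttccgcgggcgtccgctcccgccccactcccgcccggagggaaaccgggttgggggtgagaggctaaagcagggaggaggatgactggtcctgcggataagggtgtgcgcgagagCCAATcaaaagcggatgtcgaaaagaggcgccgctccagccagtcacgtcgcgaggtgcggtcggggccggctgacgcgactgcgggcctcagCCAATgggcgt
FAR2 promoter, chr12:29149028-29149277, plus strand: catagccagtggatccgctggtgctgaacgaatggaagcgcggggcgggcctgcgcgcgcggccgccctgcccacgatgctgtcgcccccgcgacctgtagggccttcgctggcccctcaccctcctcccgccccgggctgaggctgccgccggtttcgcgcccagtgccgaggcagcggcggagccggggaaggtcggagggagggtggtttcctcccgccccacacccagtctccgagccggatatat
The FAR1 window held CCAAT 3 times, at 233 to 229, 104 to 100 and 11 to 7 bases before the start, the farthest of them on the opposite strand. The FAR2 window held none of the marked motifs, which says no more than that these letters are not in it. It held GGGCGG, the GC box bound by SP1, 4 times over both strands.

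A table of promoters held 31 of the 38 genes, without ACAA1, ACOX2, DGAT1, DGAT2, EHHADH, FASN and PNPLA3. The sterol regulatory element was found in 0 of the 31, against 0.875% of 27305 promoters of the same length, and the direct repeat in 0 of the 31, against 0.267%. CCAAT was found in 7 of the 31 (22.6%), those of FAR1, ACLY, SCD, ELOVL1, ELOVL5, ACSL3 and HADH, against 33.0% of all promoters. The letters TATAAA were found on either strand in 4 of the 31 (12.9%), those of ACADVL, CD36, FABP1 and PLIN2, against 11.1%. Only the match of FABP1 lay on the strand of the gene, and that of CD36 lay 211 to 206 bases before the start. GGGCGG was found in 21 of the 31 (67.7%), against 42.3%. In ELOVL1 a CCAAT match overlapped a GGGCGG match. These are matches of letters in short windows and no binding was measured.

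The genes spanned a wide range of levels in control. FABP1, the liver fatty acid-binding protein, was highest with 526 RPKM, followed by the desaturases FADS2 (361 RPKM) and SCD (295 RPKM) and by the lipid droplet coat protein PLIN2 (193 RPKM). ACLY, which makes cytosolic acetyl-CoA from citrate, had 147 RPKM and FASN had 144 RPKM, and the ranges of this pair overlapped. At the other end, ACADL had 0.503 RPKM, CD36 0.173 RPKM, FAR1 0.113 RPKM and FAR2 0.0385 RPKM. The first 8 of the 38 by level held their order in the PELP1-KD-labelled libraries. ACSL4 moved from rank 9 to rank 13 and FAR2 from rank 38 to rank 35.

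**Figure D1:**
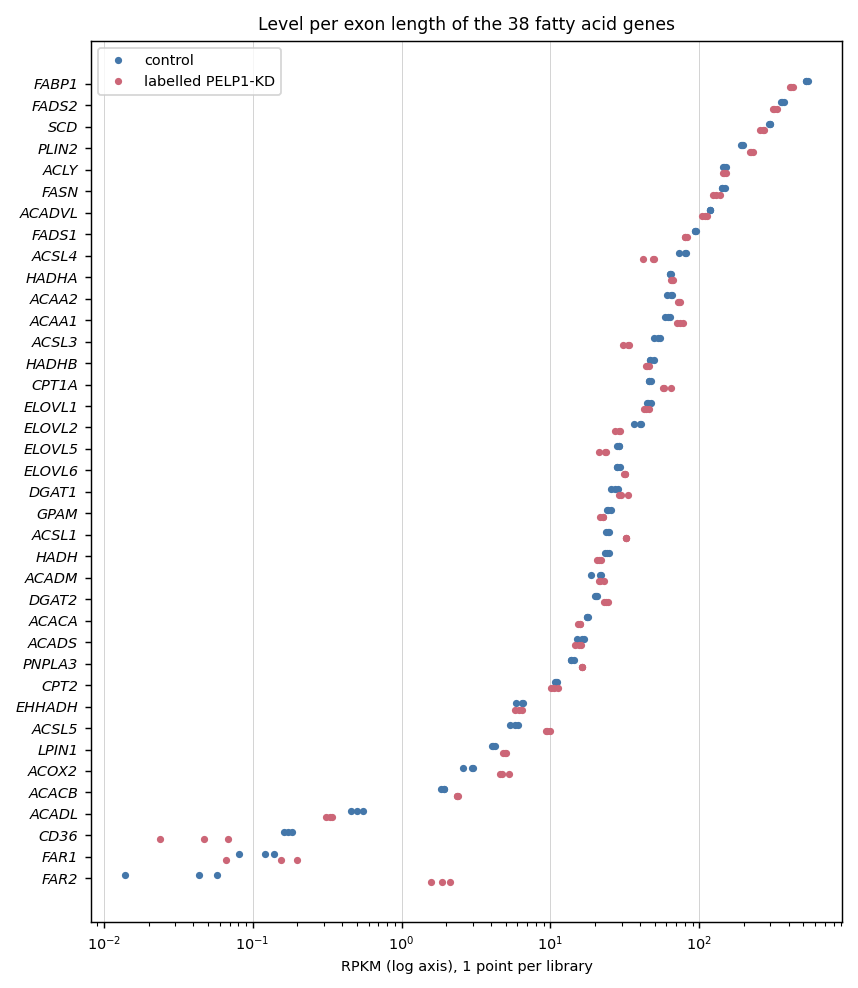
Level of the 38 genes in each of the 6 libraries, in RPKM on a log axis, ordered by the mean in control, with control in blue and the PELP1-KD-labelled libraries in red. The control means run from 526 RPKM for FABP1 to 0.0385 RPKM for FAR2, and FAR2 stands out as the gene whose red points, near 1.85 RPKM, lie far to the right of its blue points.

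With edgeR and an adjusted p below 0.05, 29 of the 38 genes were called (76.3%), against 53.6% of the 14537 genes tested. The 14 that rose are read against 26.8% of all tested genes called higher, and the 15 that fell against 26.8% called lower. The counts by role below are read against the same shares. The groups did not overlap for 30 of the 38, against 58.8% of all tested genes. Counts of calls depend on depth, and 33 of the 38 averaged 500 normalized reads or more. Among these, 25 were called, against 58.3% of the 8690 tested genes with that many reads, a limit set after the values had been seen. The median log2 fold change of the 38 was −0.03 and that of all tested genes 0.00. The median size of a change, in either direction, was 0.21 on the log2 scale for the 38 and 0.20 for all tested genes. At least a 2-fold rise was found for 1 of the 38, against 2.85% of all tested genes, and at least a 2-fold fall for 1, against 4.79%. Of the 29 called genes, 16 had a log2 fold change below 0.3 in size, so these calls rest on the narrow spread between libraries and not on large differences.

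**Figure D2:**
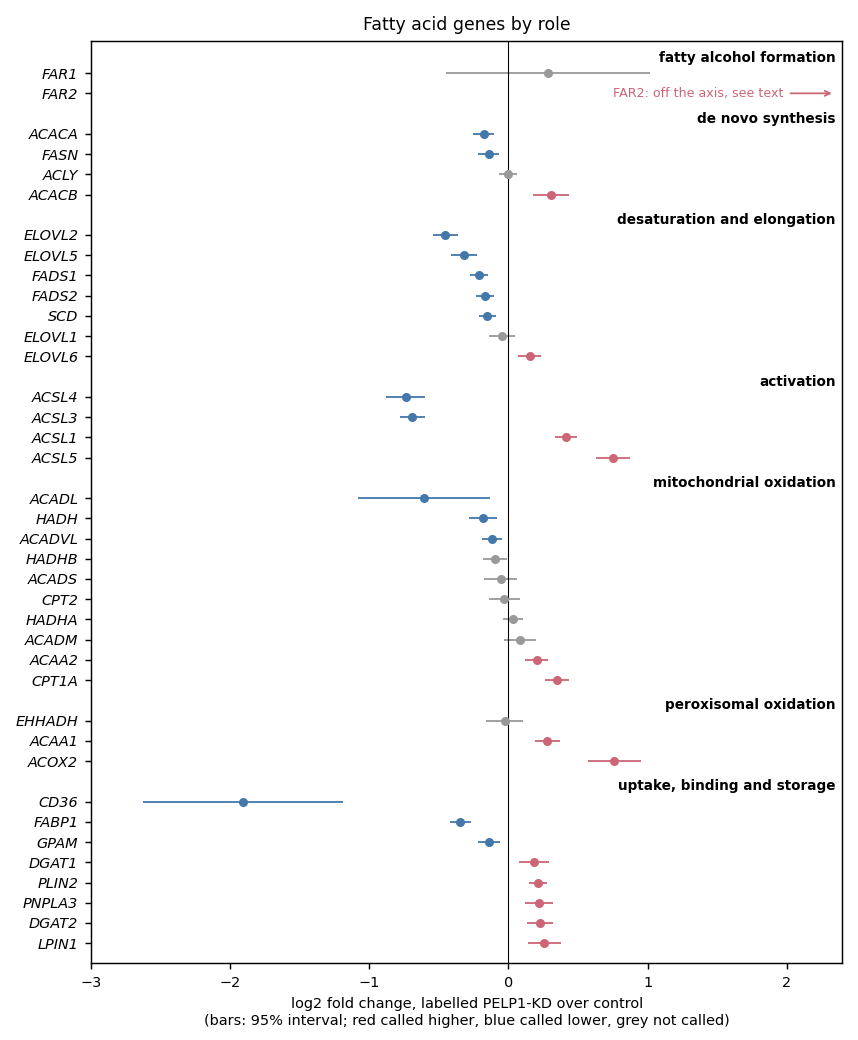
Log2 fold change of each gene, libraries labelled PELP1-KD over control, by role, with bars for the 95% interval and red, blue and grey for genes called higher, lower and not called. FAR2, at 5.53, lies beyond the axis, CD36 is lowest at −1.91, and the 4 acyl-CoA synthetases form 2 pairs on opposite sides of 0.

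FAR2 and FAR1 encode the fatty acyl-CoA reductases, which turn an acyl-CoA into the fatty alcohol used for ether lipids and waxes. FAR2, on chromosome 12 of hg19 from 29376598 to 29487006 (plus strand), had 1, 3 and 4 reads in control and 101, 106 and 139 in the PELP1-KD-labelled libraries. Each of the latter lay far above every control library. It rose by 5.53 on the log2 scale (SE 0.31, adjusted p = 1.02e-11), and a fitted change from so few control reads depends on the prior count. FAR2 was included with its rise already known, and it passed the filter on low counts only through the group where it was high, so it had to differ and its p value is no independent support. With a minimum of 10 reads per library it could not be tested, and 13 of the 38 genes were called higher. Scaled to library size, 346 reads against 8 give a ratio of 48.6, with a 95% interval of 24.4 to 113 that covers counting error only. Leaving out each library in turn gave log2 fold changes of 5.14 to 5.94. FAR2 nonetheless remained a rare transcript, at 1.85 ± 0.27 RPKM (SD, n = 3). Its reads were whole numbers in each library, with no fractional share of a read recorded, and its pseudogenes were not analysed here. Its 2 tested neighbours within 1 Mb were not called, with log2 fold changes of 0.05 and 0.06.

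FAR1, on chromosome 11 from 13690206 to 13753893 (plus strand), had 25, 21 and 14 reads in control and 32, 22 and 11 in the PELP1-KD-labelled libraries. The groups overlapped, and replicate 3 was the lowest of each group. Its log2 fold change was 0.29 with a SE of 0.35 and a 95% interval of −0.45 to 1.02 (adjusted p = 0.517), which leaves room for a change of about 2-fold upward. Without PELP1-KD replicate 1 it was −0.07. In control FAR1 was the higher of the reductases, with 0.113 RPKM against 0.0385 RPKM for FAR2. In the PELP1-KD-labelled libraries, FAR2 was the higher, with 1.85 RPKM against 0.140 RPKM for FAR1.

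The enzymes of de novo synthesis changed little, and not in 1 direction. Of 4, ACACB rose, ACACA and FASN fell, and ACLY was not called. ACACA, the cytosolic acetyl-CoA carboxylase, had 6406, 6303 and 6299 normalized reads in control and 5643, 5465 and 5687 in the PELP1-KD-labelled libraries. The groups did not overlap, and the log2 fold change was −0.18 (SE 0.04, adjusted p = 0.000257). FASN, the synthase that makes palmitate, had 37906, 37431 and 39399 normalized reads in control and 32810, 34573 and 36603 in the PELP1-KD-labelled libraries. Replicate 3 was the highest of each group and the groups came close without overlap, and the log2 fold change was −0.14 (SE 0.04, adjusted p = 0.0023). ACACB, the carboxylase of the outer mitochondrial membrane, whose product inhibits the carnitine shuttle, had 564, 561 and 538 normalized reads in control. It had 681, 695 and 682 in the PELP1-KD-labelled libraries, with a log2 fold change of 0.31 (SE 0.06, adjusted p = 0.000292). Of the summed RPKM of the 2 carboxylase genes, ACACB thus took 9.72% ± 0.18 in control and 13.1% ± 0.37 in the PELP1-KD-labelled libraries (SD, n = 3). ACLY had 20174 ± 439 normalized reads in control and 20145 ± 491 in the PELP1-KD-labelled libraries, a log2 fold change of 0.00 with a 95% interval of −0.07 to 0.06 (adjusted p = 0.962).

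Of the 7 desaturases and elongases, 5 fell, ELOVL6 rose and ELOVL1 was not called. Of all tested genes, 26.8% were called lower. SCD, which makes oleate from stearate, had 51224, 50976 and 50121 normalized reads in control and 46874, 46061 and 44165 in the PELP1-KD-labelled libraries. The groups did not overlap, and the log2 fold change was −0.15 (SE 0.03, adjusted p = 0.000199). The front-end desaturases of polyunsaturated fatty acids, FADS1 and FADS2, lie 11183 bases apart on opposite strands of chromosome 11 and had log2 fold changes of −0.21 (adjusted p = 1.08e-05) and −0.17 (adjusted p = 0.000174). ELOVL2 and ELOVL5 are the elongases of polyunsaturated chains. ELOVL2 had 5097, 5171 and 4680 normalized reads in control and 3695, 3730 and 3496 in the PELP1-KD-labelled libraries, a log2 fold change of −0.45 (SE 0.04, adjusted p = 3.68e-08). ELOVL5 had 3166, 3139 and 3041 normalized reads in control and 2602, 2559 and 2325 in the PELP1-KD-labelled libraries, a log2 fold change of −0.32 (SE 0.05, adjusted p = 6.6e-06). These 4 genes of the polyunsaturated branch among the 38 were thus lower without overlap between the groups. Of all tested genes, 58.8% had no overlap. The changes of FADS1 and FADS2 were near the median size over all tested genes, 0.20. ELOVL6, which extends palmitate, had a log2 fold change of 0.15 (adjusted p = 0.00272), and ELOVL1, which makes very long chains, had −0.04 (95% interval −0.14 to 0.05, adjusted p = 0.434). The summed level of the 4 elongase genes among the 38 was 141 ± 3.65 RPKM in control and 127 ± 1.36 in the PELP1-KD-labelled libraries (SD, n = 3). Of the genes around ELOVL2 and ELOVL5, more fell than rose, read against 26.8% of all tested genes called lower. Within 1 Mb, 7 of the 12 tested neighbours of ELOVL2 fell and 0 rose (median log2 fold change −0.17), and 9 of the 14 of ELOVL5 fell and 2 rose (median −0.22). The neighbours of ELOVL5 include MCM3, a subunit of the replicative helicase (−0.56), and PAQR8 (−4.49). Around other lowered genes of the 38 the neighbours went either way, with 5 lower and 8 higher for ACACA and 4 lower and 0 higher for ACADL.

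Of the 5 long-chain acyl-CoA synthetase genes, the 4 among the 38 genes passed the test, beside 53.6% of all tested genes. There were 2 in each direction, each with a change over 0.3 in size. The other, ACSL6, is on the further list and is rare here, with 22, 36 and 21 reads in control and 24, 20 and 15 in the PELP1-KD-labelled libraries, and it was not called (log2 fold change −0.25, adjusted p = 0.51). They catalyse the same step and differ in where they sit and which chains they take, ACSL4 being known for its preference for arachidonate and other polyunsaturated chains. Their upstream windows are shown because the genes took opposite directions, those that rose before those that fell, with capitals as above.
ACSL1 promoter, chr4:184825969-184826218, minus strand: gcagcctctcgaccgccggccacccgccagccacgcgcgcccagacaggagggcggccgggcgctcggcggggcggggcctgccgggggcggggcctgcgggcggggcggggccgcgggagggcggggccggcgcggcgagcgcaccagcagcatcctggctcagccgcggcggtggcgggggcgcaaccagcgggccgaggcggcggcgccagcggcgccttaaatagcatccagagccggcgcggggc
ACSL5 promoter, chr10:112375018-112375267, plus strand: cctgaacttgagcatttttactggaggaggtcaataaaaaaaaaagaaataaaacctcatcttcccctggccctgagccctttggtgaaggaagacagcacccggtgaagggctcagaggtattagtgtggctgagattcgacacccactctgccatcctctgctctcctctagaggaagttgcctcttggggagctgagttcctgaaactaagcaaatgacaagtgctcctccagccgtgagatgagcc
ACSL3 promoter, chr2:222860786-222861035, plus strand: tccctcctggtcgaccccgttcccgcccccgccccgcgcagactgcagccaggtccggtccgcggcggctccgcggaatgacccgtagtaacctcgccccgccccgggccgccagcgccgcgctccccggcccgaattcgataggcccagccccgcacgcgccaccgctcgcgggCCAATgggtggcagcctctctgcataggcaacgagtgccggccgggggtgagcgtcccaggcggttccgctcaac
ACSL4 promoter, chrX:109733258-109733507, minus strand: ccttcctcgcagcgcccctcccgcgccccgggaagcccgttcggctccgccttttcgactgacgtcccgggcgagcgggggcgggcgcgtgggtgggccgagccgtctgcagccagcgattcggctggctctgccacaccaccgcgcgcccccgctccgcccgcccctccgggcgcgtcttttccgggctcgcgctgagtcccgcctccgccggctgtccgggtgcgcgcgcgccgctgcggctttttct
ACSL3 held 1 CCAAT match, at 75 to 71 bases before the start, and ACSL1, ACSL4 and ACSL5 held none of the marked motifs. Guanine and cytosine made up 83.6% of the ACSL1 window and 50.0% of the ACSL5 window, the pair that rose, and 75.2% and 77.2% of those of ACSL3 and ACSL4.

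ACSL1, on chromosome 4 of hg19 from 185676749 to 185747215 (minus strand), had 2909, 2938 and 2826 normalized reads in control and 3846, 3872 and 3823 in the PELP1-KD-labelled libraries. ACSL1 thus rose by 0.41 on the log2 scale (SE 0.04, adjusted p = 2.23e-08). ACSL1 is the main synthetase of hepatocytes and adipocytes and feeds oxidation and triglyceride synthesis. ACSL5, on chromosome 10 from 114133916 to 114188138 (plus strand) and found on mitochondria and the endoplasmic reticulum, had 678, 711 and 628 normalized reads in control. It had 1122, 1172 and 1101 in the PELP1-KD-labelled libraries, a log2 fold change of 0.75 (SE 0.06, adjusted p = 1.8e-09). GPAM, which starts triglyceride synthesis and lies 190390 bases from ACSL5, moved in the opposite direction. Of 5 tested neighbours of ACSL5 within 1 Mb, it was the only gene called.

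ACSL3, on chromosome 2 from 223725732 to 223808119 (plus strand), sits on lipid droplets and the endoplasmic reticulum. It had 7283, 7459 and 6763 normalized reads in control and 4581, 4520 and 4232 in the PELP1-KD-labelled libraries, a log2 fold change of −0.69 (SE 0.04, adjusted p = 5.05e-11). ACSL4, on chromosome X from 108884564 to 108976621 (minus strand), had 13552, 13373 and 12153 normalized reads in control. It had 8267, 8152 and 6999 in the PELP1-KD-labelled libraries, a log2 fold change of −0.74 (SE 0.06, adjusted p = 1.72e-06). Replicate 3 was the lowest library of both groups for ACSL3 and ACSL4. Leaving out each library in turn kept all 4 calls, with log2 fold changes of 0.40 to 0.42 for ACSL1, 0.71 to 0.79 for ACSL5, −0.73 to −0.65 for ACSL3 and −0.78 to −0.67 for ACSL4.

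The summed level of ACSL1, ACSL3, ACSL4 and ACSL5 was 160 ± 7.88 RPKM in control and 121 ± 5.92 in the PELP1-KD-labelled libraries (SD, n = 3). Within that sum, ACSL4 took 48.6% ± 0.62 in control and 38.5% ± 1.63 in the PELP1-KD-labelled libraries, and ACSL3 took 32.7% ± 0.32 and 26.9% ± 0.24. ACSL1 went from 15.1% ± 0.47 to 26.7% ± 1.20, and ACSL5 from 3.57% ± 0.08 to 7.97% ± 0.28. For each of the 4 genes the shares of the groups did not overlap. The smallest p that a two-sided exact permutation test of 3 against 3 libraries can give is 0.1, so these shares are given as a description.

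**Figure D3:**
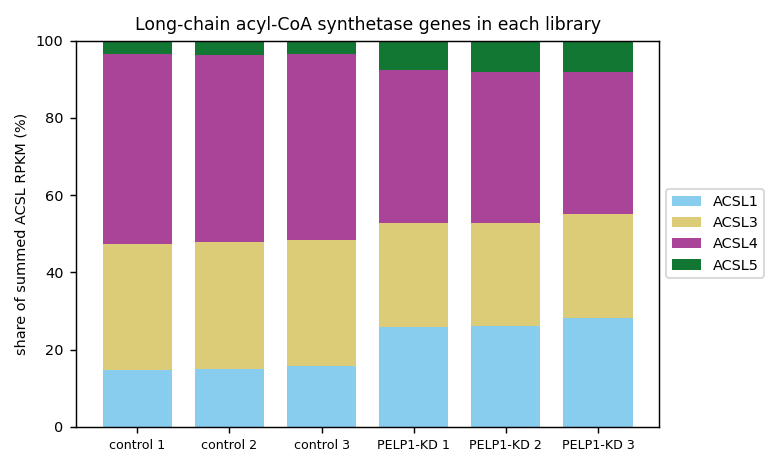
Share of ACSL1, ACSL3, ACSL4 and ACSL5, the long-chain acyl-CoA synthetase genes among the 38, in their summed RPKM, as stacked bars of 100% for each of the 6 libraries. ACSL4, the largest share in every library, goes from 48.6% of the sum in control to 38.5% in the PELP1-KD-labelled libraries on average, and ACSL1 from 15.1% to 26.7%.

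The enzymes of mitochondrial oxidation mostly changed little, and 5 of the 10 were not called. CPT1A, the carnitine palmitoyltransferase that sets the rate of entry into mitochondria, had 7952, 7970 and 8182 normalized reads in control and 9747, 9902 and 11062 in the PELP1-KD-labelled libraries. Every library labelled PELP1-KD was above every control library, replicate 3 most, and the log2 fold change was 0.35 (SE 0.04, adjusted p = 7.27e-07). CPT2, which acts at the inner membrane, had a log2 fold change of −0.03 (95% interval −0.14 to 0.08). ACADL, the long-chain acyl-CoA dehydrogenase, is scarce in these cells, with 39, 41 and 45 reads in control and 26, 21 and 26 in the PELP1-KD-labelled libraries. The groups did not overlap, and the log2 fold change was −0.61 (SE 0.23, adjusted p = 0.0301). The call is not firm, since DESeq2 gave an adjusted p of 0.133. It was also lost without control replicate 2 (0.0659), control replicate 3 (0.0994), PELP1-KD replicate 1 (0.0548), PELP1-KD replicate 2 (0.0752) or PELP1-KD replicate 3 (0.0642). Of the 5 tested neighbours of ACADL within 1 Mb, 4 fell, beside 26.8% of all tested genes called lower.

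ACADVL, the very long-chain dehydrogenase and by far the more abundant, fell from 8472 ± 25.4 to 7807 ± 319 normalized reads (SD, n = 3), a log2 fold change of −0.12 (adjusted p = 0.00912). The medium-chain and short-chain dehydrogenases ACADM and ACADS had log2 fold changes of 0.08 and −0.06 and were not called. With the replicate number as a block ACADM was called, at 0.09 with an adjusted p of 0.0466. HADH, the hydroxyacyl-CoA dehydrogenase of shorter chains, fell by 0.18 on the log2 scale (adjusted p = 0.00341), and ACAA2, the mitochondrial thiolase, rose by 0.20 (adjusted p = 0.00025).

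HADHA and HADHB encode the subunits of the mitochondrial trifunctional protein. Their genes lie head to head on chromosome 2, 21 bases apart in the hg19 annotation of the counts. The RefSeq starts behind the windows lie farther apart than that. The window of HADHA (chr2:26244633-26244882, minus strand) therefore lies largely over the same bases as that of HADHB, which is shown.
HADHB promoter, chr2:26244689-26244938, plus strand: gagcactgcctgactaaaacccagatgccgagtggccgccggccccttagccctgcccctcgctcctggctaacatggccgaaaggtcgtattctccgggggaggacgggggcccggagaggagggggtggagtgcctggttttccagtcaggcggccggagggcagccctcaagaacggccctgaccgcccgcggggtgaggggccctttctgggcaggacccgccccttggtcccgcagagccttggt
The window held none of the marked motifs and 2 matches to GGGCGG on the opposite strand. HADHA had 6098 ± 82.6 normalized reads in control and 6246 ± 95.4 in the PELP1-KD-labelled libraries (SD, n = 3), a log2 fold change of 0.03 with a 95% interval of −0.04 to 0.11. HADHB had 3277 ± 119 and 3066 ± 90.7, a log2 fold change of −0.10 with an adjusted p of 0.0599. HADHB passed the threshold with the replicate number as a block (adjusted p = 0.0128), with upper-quartile scaling (0.0494), without PELP1-KD replicate 1 (0.0306) and with a minimum of 10 reads per library (0.0471).

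In peroxisomes, 2 of the 3 genes rose, beside 26.8% of all tested genes called higher. ACOX2, the oxidase of branched chains and bile acid intermediates, had 187, 217 and 219 normalized reads in control and 332, 343 and 381 in the PELP1-KD-labelled libraries. The groups lay well apart, and the log2 fold change was 0.76 (SE 0.09, adjusted p = 8.22e-07), the largest rise after that of FAR2 and within its error of that of ACSL5. ACAA1, the peroxisomal thiolase, rose by 0.28 on the log2 scale (adjusted p = 1.77e-05), and EHHADH, the bifunctional enzyme, had a log2 fold change of −0.03 (95% interval −0.16 to 0.11, adjusted p = 0.747).

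All 8 genes of uptake, binding and storage passed the test, 5 higher and 3 lower, beside 53.6% of all tested genes called. CD36, a receptor that takes up long-chain fatty acids, is on chromosome 7 from 80231504 to 80308593 (plus strand) and had 34, 29 and 31 reads in control and 4, 10 and 8 in the PELP1-KD-labelled libraries. The highest of the latter was well below the lowest control library. The log2 fold change was −1.91 (SE 0.34, adjusted p = 0.000102), and leaving out each library in turn gave −2.26 to −1.59. At 0.173 RPKM in control and 0.0464 RPKM in the PELP1-KD-labelled libraries, CD36 was rare in both groups. It reached 10 reads in every library of the control group only, and like FAR2 it could not be tested with that minimum in every library. It thus passed the filter on low counts only through the group where it was high, and its p value is no independent support.

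FABP1, which carries fatty acids in the hepatocyte cytosol, had the highest level of the 38 genes, and its upstream window is shown because it held TATAAA 31 to 26 bases before the start.
FABP1 promoter, chr2:88128063-88128312, minus strand: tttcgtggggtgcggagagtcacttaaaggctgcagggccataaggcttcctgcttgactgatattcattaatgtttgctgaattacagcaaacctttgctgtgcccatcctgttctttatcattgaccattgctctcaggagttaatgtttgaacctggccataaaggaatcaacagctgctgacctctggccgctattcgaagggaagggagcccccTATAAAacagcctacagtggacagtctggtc
FABP1 had 9241, 9178 and 9526 normalized reads in control and 7167, 7253 and 7580 in the PELP1-KD-labelled libraries. The groups did not overlap, and the log2 fold change was −0.34 (SE 0.03, adjusted p = 7.38e-08). The 8 hepatocyte markers did not move together. ALB, TTR, SERPINA1, APOB, TF and APOA1 fell, by between 0.61 (ALB) and 0.13 (APOA1) on the log2 scale, while AFP rose by 0.62 and HNF4A by 0.23, and their part in the change of FABP1 was not tested.

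Of the other 6 genes of this group, which act in triglyceride synthesis or on lipid droplets, GPAM fell and 5 rose. GPAM, the glycerol phosphate acyltransferase, had a log2 fold change of −0.14 (adjusted p = 0.00546), and without control replicate 1 it was −0.11 and not called (adjusted p = 0.0585). LPIN1, the phosphatidate phosphatase of a later step, rose by 0.26 on the log2 scale (adjusted p = 0.000775). DGAT1 and DGAT2, which add the last acyl chain, rose by 0.18 (adjusted p = 0.0062) and 0.23 (adjusted p = 0.000263). Their summed level was 47.3 ± 1.72 RPKM in control and 54.4 ± 2.92 in the PELP1-KD-labelled libraries (SD, n = 3). PLIN2, the droplet coat, rose by 0.22 (adjusted p = 8.49e-06) from 12704 ± 170 to 14745 ± 298 normalized reads (SD, n = 3). PNPLA3, a droplet lipase known for its part in fatty liver disease, rose by 0.22 (adjusted p = 0.000603).

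**Figure D4:**
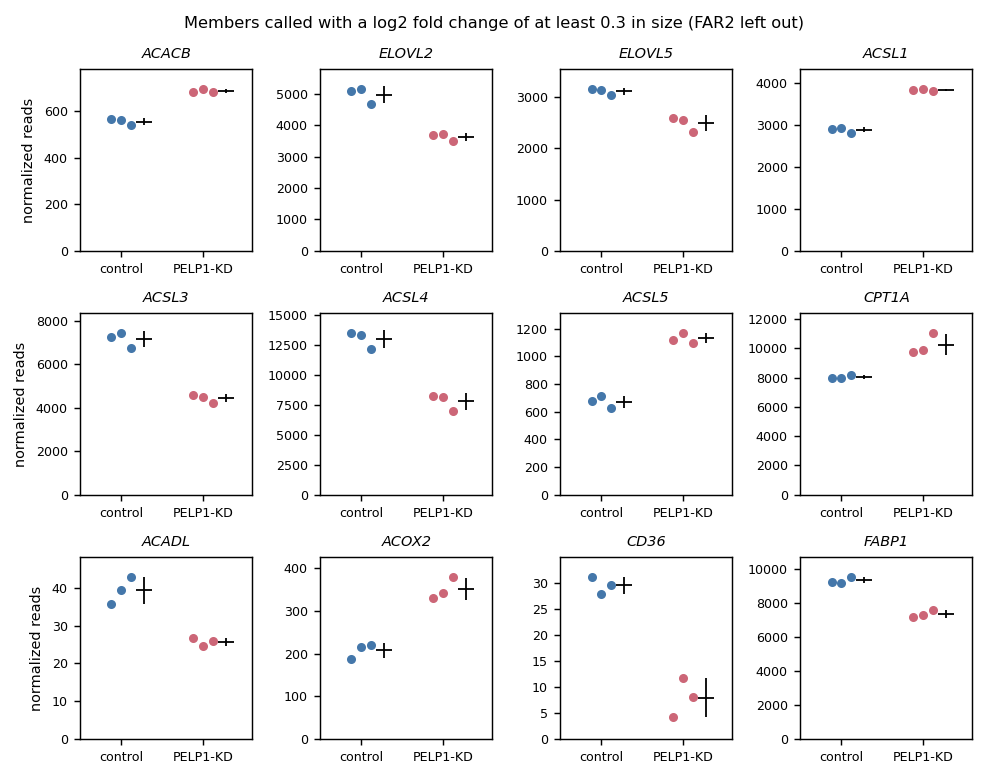
Normalized reads in each library (points) with the mean and SD of the 3 libraries of a group (black) for the called genes with a log2 fold change of at least 0.3 in size, FAR2 left out. The groups do not overlap in any of the 12 panels, which largely follows from choosing called genes. Of all tested genes, 58.8% had no overlap. The axes start at 0, so that the 2-fold or larger fall of CD36 can be set against the smaller changes of the rest, such as 0.31 on the log2 scale for ACACB.

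A further list of 137 genes of fatty acid and triglyceride metabolism was read in the same fit. Like the 38, it was drawn up with earlier results of these data known, so its counts are a description. Of the 115 with enough reads, 38 rose and 26 fell, or 55.7%, beside 53.6% of all tested genes. With the replicate number as a block, 42 rose and 33 fell, beside 8828 calls among the 14537 genes tested. Of 20 tested genes of mitochondrial oxidation, 4 rose and 5 fell, and of 32 of uptake, binding and storage, 15 rose and 8 fell. Of 10 tested desaturation and elongation genes, 4 rose and 2 fell. Those that rose, named after their values had been seen, were the elongases ELOVL7 (log2 fold change 0.60, adjusted p = 4.95e-07) and ELOVL3 (0.79, adjusted p = 0.0377, with overlapping groups) and the desaturase genes FADS3 (0.57, adjusted p = 3.57e-09) and SCD5 (0.36, adjusted p = 0.0314). ELOVL4 was not called, so of the 7 elongases 3 rose, 2 fell and 2 were not called. Of 4 genes of ether lipid and fatty alcohol metabolism, 1 rose, ALDH3A2, the fatty aldehyde dehydrogenase, by 0.20 on the log2 scale (adjusted p = 0.000351). AGPS and GNPAT, the peroxisomal enzymes of ether lipid synthesis, had log2 fold changes of 0.01 and −0.07 and were not called.

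Of the further genes, 3 changed at least 2-fold with an average of 50 normalized reads or more in the group where they were higher. ETFB, a subunit of the flavoprotein that takes electrons from the acyl-CoA dehydrogenases, had 7929, 7761 and 7771 normalized reads in control and 15736, 16939 and 17783 in the PELP1-KD-labelled libraries. ETFB thus rose by 1.10 on the log2 scale (SE 0.04, adjusted p = 8.91e-15), while ETFA, the other subunit, had 0.03 and was not called. CIDEC, which enlarges lipid droplets, had 98.1, 113 and 97.3 normalized reads in control and 339, 422 and 438 in the PELP1-KD-labelled libraries, a log2 fold change of 1.96 (SE 0.11, adjusted p = 1.71e-11). PLIN4, another droplet coat protein, had 511, 568 and 572 normalized reads in control and 190, 166 and 181 in the PELP1-KD-labelled libraries, a log2 fold change of −1.62 (SE 0.08, adjusted p = 3.62e-12). Among the droplet coat genes PLIN2 was the only one called higher. PLIN3 and PLIN5, named after their values had been seen, fell with PLIN4, by 0.32 (adjusted p = 1.11e-06) and 0.39 (adjusted p = 0.00195) on the log2 scale, and PLIN1 had −0.63 and was not called (adjusted p = 0.187). With fewer reads, and named after their values had been seen, MOGAT1 also rose at least 2-fold, from 3, 2 and 1 reads to 13, 17 and 12. LIPE, from 36, 26 and 14 reads to 1, 0 and 4, and SLC27A5, from 21, 30 and 28 reads to 11, 10 and 11, fell at least 2-fold.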

How the data were processed

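RNA-seq of 3 control and 3 PELP1-KD libraries of Hep3B cells was analysed. Samples were grouped by their titles, which number the replicates of both groups from 1 to 3. The methods of the study name TopHat2 and HTSeq on hg19, the submitters' processing notes name bcl2fastq, HISAT2, SAMtools and featureCounts, and the file headers give a featureCounts 1.5.0-p1 command. Per the file headers, the authors deposited estimated counts per gene, counted on exons by strand at a mapping quality of at least 2, with reads that matched several places or genes shared out as fractions. Between 10.6% and 13.3% of a library's values were not whole. None of the exon bases of the 38 genes is shared with another gene, but reads of near-identical copies can still be split.

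The counts were rounded, and 14537 of 23228 genes passed filterByExpr of edgeR 4.0.16 (R 4.3.3). Groups were compared with TMM scaling, glmQLFit with robust estimation and glmQLFTest, with Benjamini-Hochberg adjustment over all tested genes and a threshold of 0.05. The SE was taken from the size of the log2 fold change and the F value (their quotient, with F under a root), with a median of 0.063 over all tested genes, and the 95% interval uses the test's own degrees of freedom. RPKM used the TMM-scaled library sizes. The ratio for FAR2 has an exact binomial interval. The alternatives were DESeq2 1.42.0, DESeq2 size factors or upper-quartile scaling in edgeR, other filters on low counts, counts without rounding, stricter thresholds, the omission of each library in turn, and a replicate block. The fits were tested on simulated counts.

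The pairing of replicate numbers was checked over 6397 genes. Deviations from the group mean of same-numbered libraries had correlations of 0.333, 0.242 and 0.665 across genes. Control replicate 2 with PELP1-KD replicate 1 had 0.419, so replicates 1 and 2 are not told apart and only replicate 3 stands out. The main fit used no pairing, so its p values take none into account, and the replicate block was an alternative. Between replicates of a group, the chi-square of the counts per degree of freedom was 1.94 to 7.02, above sampling noise.

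The 38 genes, the further list and the markers were chosen with earlier results of these data known, among them the rise of FAR2. Values in every library are given for FAR1, FAR2, ACACA, FASN, SCD, CPT1A and each called gene with a log2 fold change of at least 0.3 in size. Of the further list, genes with a 2-fold change and a mean of at least 50 reads in the higher group are named by rule. Other genes of that list are named outside this rule, among them genes picked after their values had been seen. Promoters are RefSeq's for GRCh38.p14, a build other than that of the counts, and were matched by symbol. Their start sites were not checked against those of the counted transcripts.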

Additional observations from a re-analysis of the deposited data

How the results depend on the processing

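Over all alternatives, 507 values of single genes among the 38 kept their direction and their side of the threshold, 8 changed sign, 7 lost their call and 5 gained one. With at least a 2-fold change required, 1 of the 38 genes was higher and 1 lower, and 3 of the further genes were higher and 3 lower. Of all tested genes, 2.85% were then higher and 4.79% lower. Leaving out each library in turn gave 14 of the 38 genes higher and 14 to 15 lower, and 31 to 36 further genes higher and 23 to 29 lower. Over all genes, these fits called 6766 to 7938 of the 14677 to 14701 tested, and the main fit 7788 of 14537. The median log2 fold change of the 38 then lay between −0.0636 (without PELP1-KD replicate 3) and −0.00693 (without PELP1-KD replicate 1). PELP1 lay between −0.105 and −0.0400 in these fits. With the replicate block PELP1 was −0.0831 and passed the threshold, as did HADHB and ACADM, and the block changed no other call among the 38. Of the further genes, 42 were then higher and 33 lower, beside 8828 calls among the 14537 genes tested.

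The genes that changed sign were not called in any fit. ACLY was 0.000907 with no filter on low counts. With each library left out in turn, ACLY lay between −0.0214 and 0.0197, FAR1 between −0.0747 and 0.638, CPT2 between −0.0740 and 0.00492 and EHHADH between −0.0713 and 0.0148. The cause was not tested. ACADL, CD36 and FAR1 could not be fitted with a mean of at least 1 RPKM, and depth limits what their reads, and those of FAR2 in control, can show.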

Other observations

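The regulators of the pathway did not move together. Of 17 tested, 5 rose and 4 fell, beside 26.8% of all tested genes called in each direction. The genes named here were picked after their values had been seen. SREBF1, which encodes the sterol-responsive factor that drives fatty acid synthesis, had 3879, 3695 and 3946 normalized reads in control and 2294, 2621 and 2735 in the PELP1-KD-labelled libraries. The log2 fold change was −0.59 (SE 0.05, adjusted p = 1.21e-08). SREBF2, the factor of cholesterol synthesis, had a log2 fold change of 0.01 and was not called. INSIG1, which holds both factors in the endoplasmic reticulum, rose by 0.12 on the log2 scale (adjusted p = 0.0175). INSIG2 went the other way, at −0.27 (adjusted p = 0.00898), and SCAP rose by 0.14 with overlapping groups (adjusted p = 0.00953). MLXIPL, the carbohydrate-responsive factor, fell by 0.20 (adjusted p = 0.000711), and PPARGC1B, a coactivator of oxidative genes, rose by 0.80 (adjusted p = 2.38e-08). PPARA, the fatty acid-sensing receptor of the liver, had −0.06 and was not called. The catalytic subunits of AMP-activated kinase went in opposite directions, PRKAA1 up by 0.24 (adjusted p = 0.00721) and PRKAA2 down, at −0.52 (adjusted p = 1.72e-06).

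The lipases of stored triglyceride also differed. The genes named in this paragraph were likewise picked after their values had been seen, and other called genes of the further list are not named. PNPLA2, the adipose triglyceride lipase, had 1905, 2005 and 2098 normalized reads in control and 1254, 1354 and 1361 in the PELP1-KD-labelled libraries, a log2 fold change of −0.60 (SE 0.05, adjusted p = 5.76e-09). MGLL, the monoglyceride lipase, had 7225, 7520 and 7731 in control and 11438, 11822 and 12272 in the PELP1-KD-labelled libraries, a log2 fold change of 0.66 (SE 0.04, adjusted p = 8.93e-12). G0S2, a protein that inhibits PNPLA2, rose by 0.69 (adjusted p = 0.00396), and ABHD5, which activates it, rose by 0.30 (adjusted p = 0.000565). Elsewhere in the pathway, ACSS2, which makes acetyl-CoA from acetate, rose by 0.52 (adjusted p = 2.42e-09). HSD17B12, the reductase of the elongation cycle, fell by 0.54 (adjusted p = 4.59e-08), and BDH1, the ketone body dehydrogenase, fell by 0.98 (adjusted p = 2.89e-06).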
